A study of Mus musculus with 17 samples.

Results

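The Fanconi anemia and homologous recombination genes are a set of 32 named genes that repair crosslinked and broken DNA. They were followed here in hematopoietic stem cells (HSCs) sorted from mice. A gene was represented by the probe set annotated to its symbol alone and, where there were several, by the brightest of them on average over the arrays. This gave 30 of the 32 members, out of 18194 genes with a probe set of their own and 16785 genes above the lowest deposited intensity on at least 1 array. Xrcc2 and Rbbp8 had no such probe set and were not analysed here. RNA was measured on 17 Affymetrix arrays in 5 groups. Fetal liver HSCs came from embryos at E15.5 (n = 3), with no genotype in their labels. Adult controls, labelled wild type, were taken at day 7 (n = 3) or day 21 (n = 4) after injection of pIpC, an artificial double-stranded RNA that triggers an interferon response. Adult cells titled C/EBPa KO were taken at the same days (n = 3 and n = 4), so pIpC was shared by controls and KO. The genotype field of the KO arrays and the design text name a homozygous PU.1 knock-in in place of a C/EBPa deletion, so the labels conflict and the titles were followed. For the Cre driver, the age of the adults and the number of animals or pools, no statement was found in the labels. The p-values therefore measure the spread between these arrays, which may be technical. Sorted adult cells were lin-, Sca1+, cKit+, CD150+ and CD48-, and fetal cells were selected for low Mac-1 as well. The series title concerns the role of the transcription factor C/EBPa in the quiescence of adult HSCs.

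The Fanconi pathway acts when replication forks meet a crosslink between DNA strands. A core complex of Fanconi proteins attaches ubiquitin to the paired proteins FANCD2 and FANCI, which then direct nucleases to the lesion, and the break that results is mended by homologous recombination. In recombination the broken end is resected to single-stranded DNA, and that strand invades the intact sister chromatid, which serves as the template. Loss of the pathway in people causes bone marrow failure, and many of its genes are transcribed by E2F factors as cells enter S phase.

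The targeted gene was examined first. Cebpa, the gene for C/EBPa, had intensities of 136, 141 and 315 in control and 32, 31 and 20.7 in KO at day 7, and of 275, 115, 115 and 532 in control and 26.7, 29.9, 25 and 39.8 in KO at day 21. All 7 KO arrays lay below all 7 control arrays, and over both days the log2 difference was −2.78 (SE 0.36, adjusted p = 0.0426, limma with Benjamini-Hochberg adjustment over all genes). The labels do not say whether the probe set lies in the deleted sequence. Low Cebpa was not particular to KO, since fetal liver had 40.4, 30.2 and 81. The fetal difference was −2.08 (SE 0.47, limma adjusted p = 0.0246) from the adult controls and 0.69 (SE 0.47, adjusted p = 0.559) from KO. Spi1, the gene for PU.1, had differences of 0.34 (SE 0.47) at day 7 and −0.03 (SE 0.41) at day 21. None of 7 measured HSC markers was at the floor on any array. Kit, Procr, Mecom and Hlf lay at 264 or more throughout, whereas Slamf1, the CD150 of the gate, went down to 37.8, Hoxb5 to 31.8 and Fgd5 to 55.1. Of 3 lymphoid markers, Cd3e did not exceed 19.7, Cd79a lay between 30.9 and 74.5, and Il7r was at the floor in fetal liver and control and reached 132 in KO day 7. Cd48, excluded by the gate, lay between 16 and 18.8 in control day 7 and reached 658 in control day 21. Deposited intensities did not go below 16, and a gene at this floor has only an upper bound.

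Promoter windows are shown for members with a probe set called in the fetal comparison below, where every probe set was tested on its own. In the main fit only Dna2 was called, and Fancd2, also among these members, had no window. RefSeq (GRCm38.p6) windows from 250 bases before to 50 bases after the gene start were found for 25 of the 30 members. Dna2, on the plus strand at chr10:62946779-62947078, and Fanci, on the plus strand at chr7:79392088-79392387, held no match to the motifs searched. Rad51ap1, on the minus strand at chr6:126939538-126939837, held the CCAAT box on its opposite strand at 2 places, printed in capitals.
Dna2: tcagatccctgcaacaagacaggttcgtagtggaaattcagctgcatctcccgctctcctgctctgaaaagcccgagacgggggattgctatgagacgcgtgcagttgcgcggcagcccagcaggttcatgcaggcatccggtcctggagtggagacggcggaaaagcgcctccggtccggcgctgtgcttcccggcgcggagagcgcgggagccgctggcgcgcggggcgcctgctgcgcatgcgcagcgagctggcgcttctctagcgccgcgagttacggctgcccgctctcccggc
Fanci: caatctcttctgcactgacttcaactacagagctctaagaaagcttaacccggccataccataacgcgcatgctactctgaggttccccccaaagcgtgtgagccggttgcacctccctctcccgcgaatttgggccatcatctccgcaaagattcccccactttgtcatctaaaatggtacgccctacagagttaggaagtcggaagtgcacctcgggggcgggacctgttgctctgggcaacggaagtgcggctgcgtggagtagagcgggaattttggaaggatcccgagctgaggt
Rad51ap1: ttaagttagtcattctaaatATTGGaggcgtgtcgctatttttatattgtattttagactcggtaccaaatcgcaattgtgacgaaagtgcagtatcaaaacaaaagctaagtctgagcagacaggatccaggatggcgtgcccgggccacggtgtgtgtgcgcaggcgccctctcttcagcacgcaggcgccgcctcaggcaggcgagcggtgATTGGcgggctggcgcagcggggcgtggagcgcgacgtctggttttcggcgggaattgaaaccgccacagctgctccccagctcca

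The E2F motif TTTCCCGC, searched on both strands, was present in 5 of these 25 members (20.0%) and in 1.24% of the 27025 genes with a window. A second E2F form, TTTGGCGC, was in none of the 25 and in 0.585% of genes. The CCAAT box (CCAAT) was in 16 members (64.0%, against 41.1% of genes), the CHR element of late cell cycle genes (TTTGAA) in 1 (4.0% against 20.2%), and the C/EBP motif TTGCNNAA in 1, Atr (4.0% against 12.2%). Members' windows had a median GC content of 59.7%, against 52.7% over all windows. The E2F matches are printed with 10 bases on each side, in the direction of the gene and with the match in capitals, because these 5 members can be set against the expression values that follow. They lie at chr4:43010336-43010363 (Fancg, minus strand), chr1:71103164-71103191 (Bard1, minus strand), chr5:150522443-150522470 (Brca2, plus strand), chr11:87404942-87404969 (Rad51c, minus strand) and chr5:110839821-110839848 (Chek2, plus strand). A match is a description of the letters, not a bound site.
Fancg: ttcttttcagTTTCCCGCggaaccgtct
Bard1: cgccgctcagTTTCCCGCtcaggaagtt
Brca2: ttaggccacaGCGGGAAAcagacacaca
Rad51c: ccccgcgaggGCGGGAAAagcaaggggt
Chek2: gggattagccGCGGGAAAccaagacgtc

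In most comparisons no member passed the test, and the members varied more between replicate arrays than the median of all genes tested, which include genes near the floor. The median SD of the log2 intensity within a group was 0.75 over members and 0.38 over all genes in fetal liver, 0.60 and 0.36 in control day 7, 0.43 and 0.30 in KO day 7, 0.83 and 0.46 in control day 21, and 0.62 and 0.35 in KO day 21. Brca1, whose product promotes resection and recruits PALB2, had intensities of 43.2, 60, 1080 and 48.4 in control day 21 and of 468, 47, 561 and 329 in KO day 21. In control day 21 the highest Brca1 array was thus 24.9 times the lowest. Fancg, a subunit of the core complex, spanned from the floor of 16 to 1480 in control day 21, and lay between 125 and 1090 in the other groups. Fancb, which supports the ubiquitin ligase subunit of the core complex, was the steadiest, between 25.8 and 38.2 over all arrays, with a pooled SD of 0.19. Of the 30 members 26 were above the floor on every array. Rad54b, a relative of the recombination motor RAD54, lay at the floor on 14 of 17 arrays and did not exceed 36.1, and Palb2, Nbn and Fancg were at the floor on 1 array each.

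**Figure D1:**
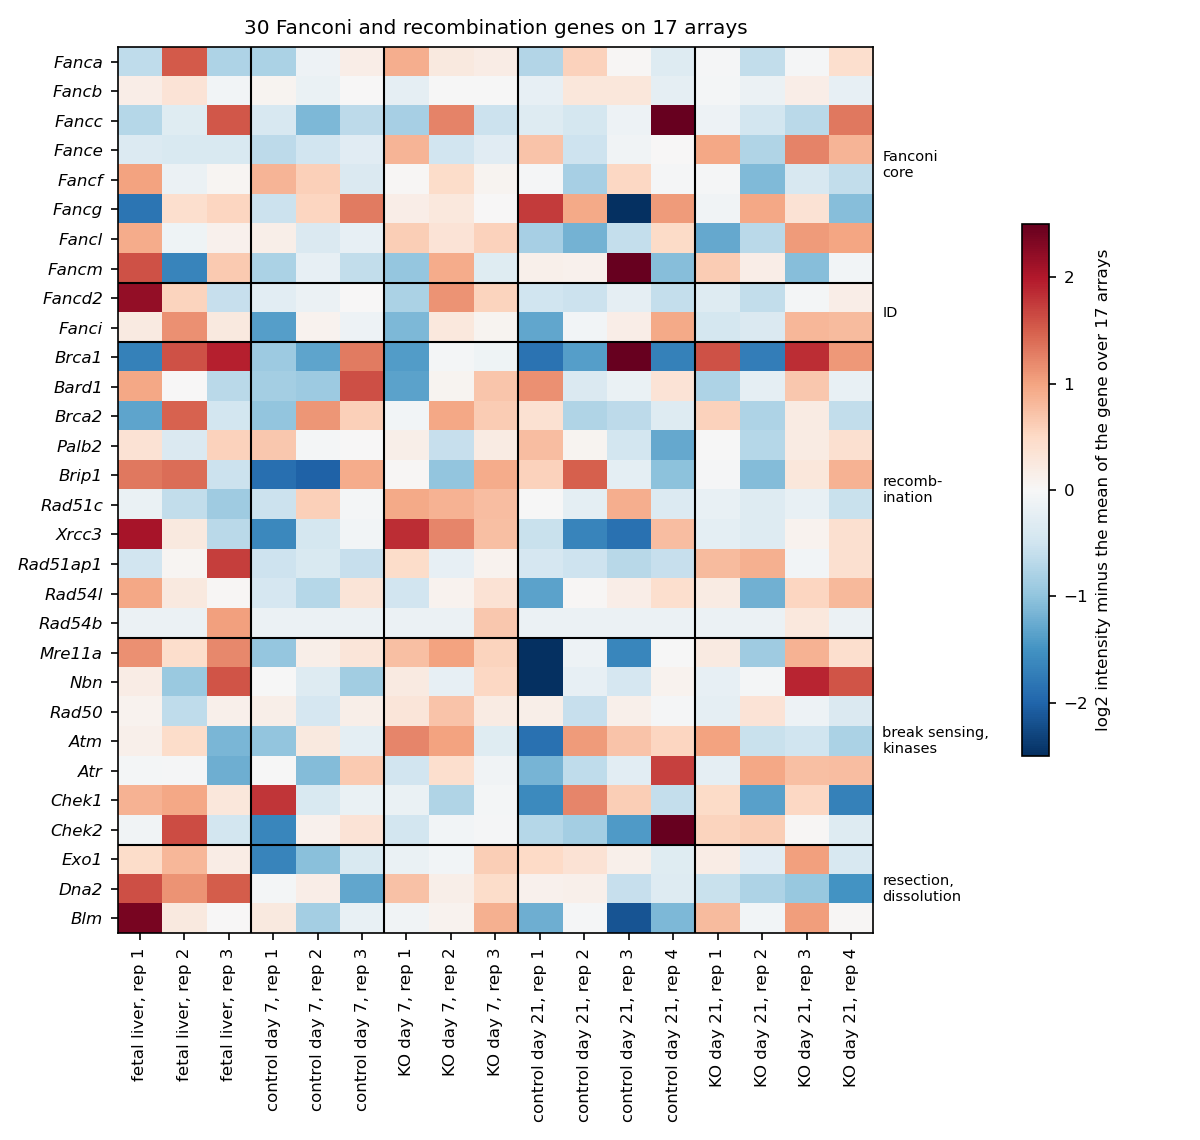
Log2 intensity of each of the 30 measured members on the 17 arrays, minus the mean of that gene over all arrays, ordered by role (rows) and group (columns); colours stop at 2.5 log2 units on either side. Fetal liver and KO day 7 columns hold more red than control columns, and single arrays such as control day 21 replicates 3 and 4 hold isolated extreme values.

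The fetal comparison sets HSCs of the fetal liver against adult HSCs. All adult arrays followed pIpC, no pIpC is labelled for the fetal arrays, and only the fetal sort selected for low Mac-1. Age, source, pIpC and sort therefore cannot be told apart in this comparison. Dna2, a nuclease and helicase that resects broken ends and trims flaps at replication forks, was the only member called. It rose in fetal liver by 1.70 on the log2 scale over the mean of the adult controls, a 3.25-fold difference (SE 0.30, 95% confidence interval 1.06 to 2.35, limma adjusted p = 0.00578). Among all 16785 genes 3.65% were called in this comparison and 1.88% were called higher, and the members' 1 of 30 is near that share. Intensities of Dna2 were 423, 302 and 396 in fetal liver, 134, 154 and 56.1 in control day 7, and 149, 150, 93 and 111 in control day 21. They were 230, 153 and 191 in KO day 7 and 93.4, 80.6, 71.9 and 48.9 in KO day 21. The 3 fetal arrays lay above all 14 adult arrays. Against the adult KO groups the difference was 1.67 (SE 0.30, adjusted p = 0.00807), with 2.54% of all genes called and 1.2% called higher. In that comparison 20 of 30 members were positive, with a median of 0.23, against 50.9% of all genes, and 2 members had an unadjusted p under 0.05 (6.67%, against 14.4% of all genes). Dna2 was the 1 member whose fetal and KO arrays did not overlap, against 3.7% of all genes with fetal liver above KO. Both fetal comparisons use the same 3 fetal arrays. With only the fetal and control arrays in the fit, the adjusted p of Dna2 against controls was 0.0521. The gene's other 2 probe sets gave 1.27 (SE 0.40) and 0.32 (SE 0.42) against controls, and neither passed.

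Of the 30 members 23 had a positive difference in fetal liver against adult controls, with a median of 0.47, whereas 52.0% of all genes were positive, with a median of 0.02. The resection and dissolution enzymes had a median of 1.58. Blm, the helicase that dissolves joined recombination intermediates, had intensities of 471, 109 and 91.9 in fetal liver against 107, 50.5 and 80.2 in control day 7 and 39.2, 89.8, 20.4 and 41.9 in control day 21. The groups overlapped, fetal replicate 1 stood far above the others, and the difference was 1.58 (SE 0.53, adjusted p = 0.128). Exo1, the exonuclease that extends resection, had 0.92 (SE 0.34, adjusted p = 0.165). All 3 measured enzymes of this role were positive in the fetal comparison with unadjusted p under 0.05. Over all members that count was 5 of 30 (16.7%), against 16.8% of all genes.

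Mre11a, the nuclease of the complex that first binds broken ends, was the other member whose fetal arrays did not overlap the controls. It had 793, 486 and 826 in fetal liver, 185, 398 and 443 in control day 7, and 33.7, 331, 117 and 356 in control day 21. The difference was 1.66 (SE 0.62, adjusted p = 0.176), and 0.21 (SE 0.46) on the dimmer probe set of the gene. Non-overlap in the higher direction thus held for 2 of 30 members, Dna2 and Mre11a, against 3.37% of all genes. The partners of MRE11 differed from it in value, with Rad50 at −0.08 (SE 0.23) and Nbn at 0.90 (SE 0.67). The kinase genes Atm and Atr, which signal breaks and stalled forks, had −0.08 (SE 0.63) and −0.32 (SE 0.55), and their effector kinases Chek1 and Chek2 had 0.55 (SE 0.66) and 0.59 (SE 0.76). Chek1 intensities were 446, 478 and 299 in fetal liver, 843, 187 and 219 in control day 7, and 80.6, 573, 372 and 162 in control day 21. The control range of Chek1 enclosed the fetal range.

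In the ID complex, Fancd2 and Fanci encode the ubiquitinated pair at the centre of the pathway. Fancd2 had 229, 72.9 and 33.6 in fetal liver, 41.6, 45.2 and 50.1 in control day 7, and 35.2, 34.6, 42.7 and 33.1 in control day 21. Fetal replicate 1 lay far above and replicate 3 within the controls, for a difference of 1.02 (SE 0.48, adjusted p = 0.301). Fanci had 320, 599 and 323 in fetal liver, 105, 291 and 251 in control day 7, and 111, 261, 306 and 530 in control day 21. Only control day 21 replicate 4 reached the fetal range of Fanci, and the difference was 0.80 (SE 0.50, adjusted p = 0.468).

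The 8 measured core complex genes had a fetal median of 0.19, from −0.37 for Fancg to 0.65 for Fancl, the ubiquitin ligase subunit. Fancm, the motor protein that anchors the core complex on DNA, had 0.26 (SE 0.75). Fanca, Fancc, Fance and Fancf, further core subunits, had 0.22, 0.33, −0.15 and 0.16, and none of the 8 had an unadjusted p under 0.05. Among the recombination genes, whose median was 0.51, Xrcc3 had 1.32 (SE 0.61), Brip1, a helicase that binds BRCA1, 1.12 (SE 0.74), and Rad54l, the motor that aids strand invasion, 0.64 (SE 0.46). Brca1 had 48.5, 471 and 601 in fetal liver, 83.4, 62.1 and 386 in control day 7 and the control day 21 values given above. Its groups overlapped widely, and the difference of 1.04 had an SE of 1.14. Brca2, a mediator of recombination, Bard1, the partner of BRCA1, and Palb2, which bridges BRCA1 and BRCA2, had −0.05 (SE 0.57), 0.02 (SE 0.60) and 0.20 (SE 0.39).

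Rad51c, whose product acts in recombination together with XRCC3, was the member farthest below 0 in the fetal comparison, at −0.59 (SE 0.28, adjusted p = 0.307) against controls and −0.82 (SE 0.28, adjusted p = 0.163) against KO. Its intensities were 42.1, 30.7 and 25.3 in fetal liver, 32.1, 71.2 and 45.2 in control day 7, and 46.2, 39.5, 87.6 and 36.7 in control day 21. They were 90.2, 85.2 and 79.1 in KO day 7 and 41.2, 37.6, 41.2 and 31.8 in KO day 21. The KO day 7 arrays lay at 79.1 or above, as did control day 21 replicate 3 at 87.6, and fetal liver overlapped the control groups and KO day 21. Against KO, Rad51c passed in the fit of only the arrays compared (adjusted p = 0.0444). It also passed without the control array least like its group at each day (adjusted p = 0.032), and in no other alternative run. The arrays left out there are in neither group compared, and the difference stayed at −0.82. With the mean of its probe sets Rad51c had −0.52 (SE 0.33, adjusted p = 0.502) against KO. Among the 5 members with an E2F match, the fetal differences from controls were −0.59 for Rad51c, −0.37 for Fancg, −0.05 for Brca2, 0.02 for Bard1 and 0.59 for Chek2, and none passed.

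**Figure D2:**
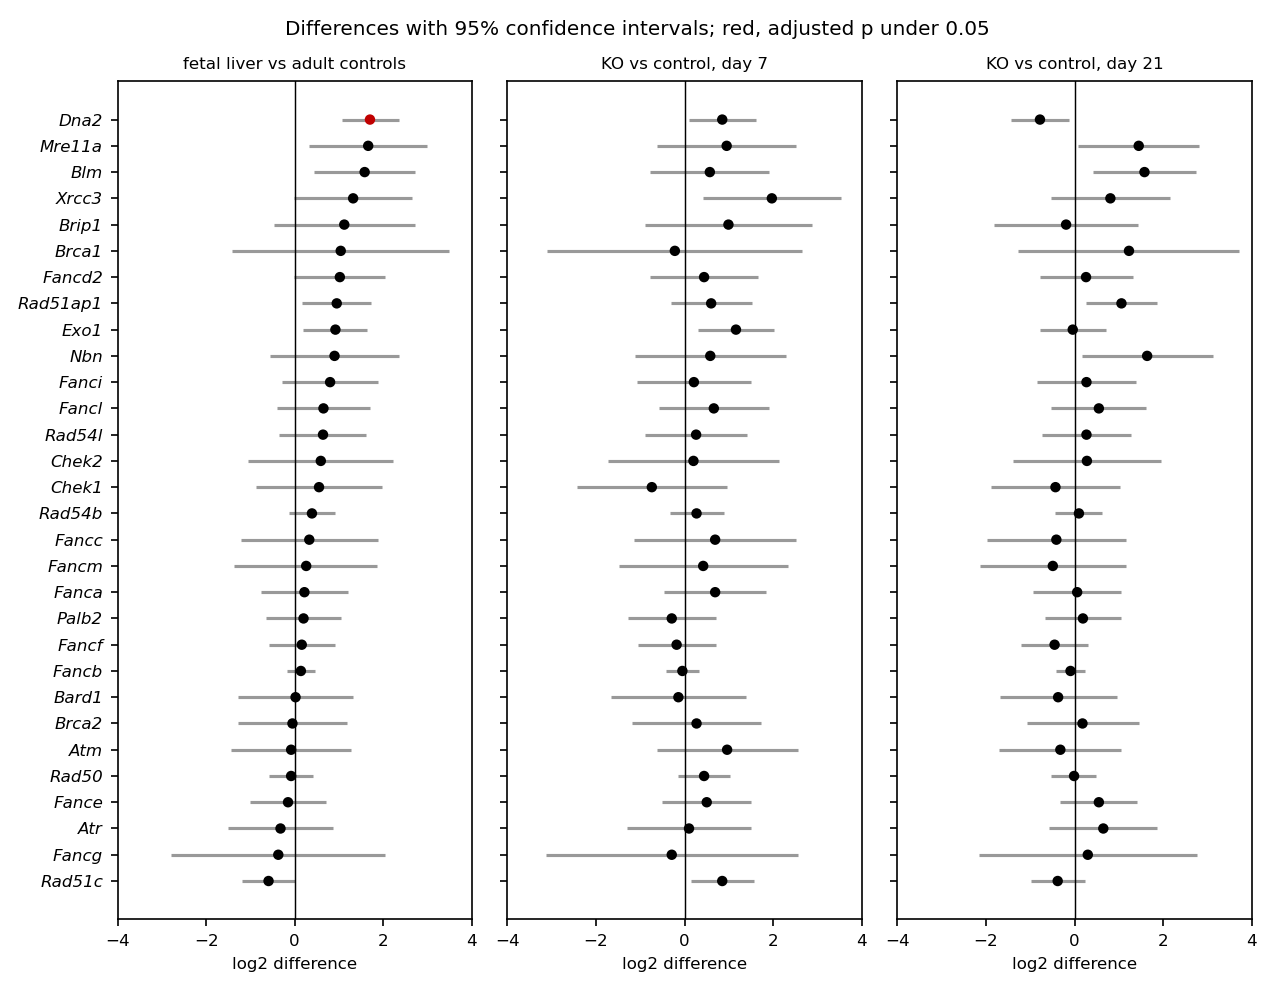
Log2 difference (points) with its 95% confidence interval (lines) for the 30 measured members in fetal liver against adult controls and in KO against control at day 7 and day 21, in the order of the fetal difference. Dna2 in the fetal comparison, in red, was the single member with an adjusted p under 0.05, and its point at day 21 lies at −0.78.

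The probe set chosen for a gene mattered. The 30 members had 69 probe sets, 22 members had more than 1, and in fetal liver against controls all probe sets of a gene had the same sign for 12 of the 22. That count was 9 against KO. In KO against control it was 11 at day 7, 10 at day 21 and 11 over both days. It was 7 for the difference between the KO effects and 7 for control day 21 against day 7. With every probe set tested on its own, 4 of the members' 68 probe sets above the floor were called higher in fetal liver and 0 lower. Counted by gene, 4 of the 30 members had a probe set called higher, against 2.67% of all genes. A gene with more probe sets has more chances of a call, and the 30 members had 69 where 18194 genes had 34958. Rad51ap1, which encodes a DNA-binding factor of recombination, had 2.63 (SE 0.58, adjusted p = 0.0231) on a second probe set, with 52.5, 154 and 499 in fetal liver against 16 to 71.7 in the controls. Fanci had 2.39 (SE 0.61, adjusted p = 0.0479) on its second probe set, with 256, 293 and 460 in fetal liver against 18.9 to 171 in the controls. Fancd2 had 1.62 (SE 0.31, adjusted p = 0.00987) on a second probe set, with 66.9, 98 and 118 against 18.2 to 42.8. The fetal and control arrays of the second probe sets of Fanci and Fancd2 did not overlap, and those of Rad51ap1 did. The chosen Rad51ap1 probe set had 0.95 (SE 0.36, adjusted p = 0.183), with fetal intensities of 54.6, 78.8 and 253 against 47 to 58.4 in the controls. Brca1 had 1.93, 1.09 and 0.10 on its other 3 probe sets. Where each gene was given the mean of all its probe sets, Dna2 had 1.10 (adjusted p = 0.000985) and Rad51ap1 1.35 (adjusted p = 0.0108), with 5.24% of all genes called. In that limma fit Fanci had 1.60 (SE 0.48, adjusted p = 0.0738) and Fancd2, with 4 probe sets, 0.56 (SE 0.17, adjusted p = 0.08), and neither passed.

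**Figure D3:**
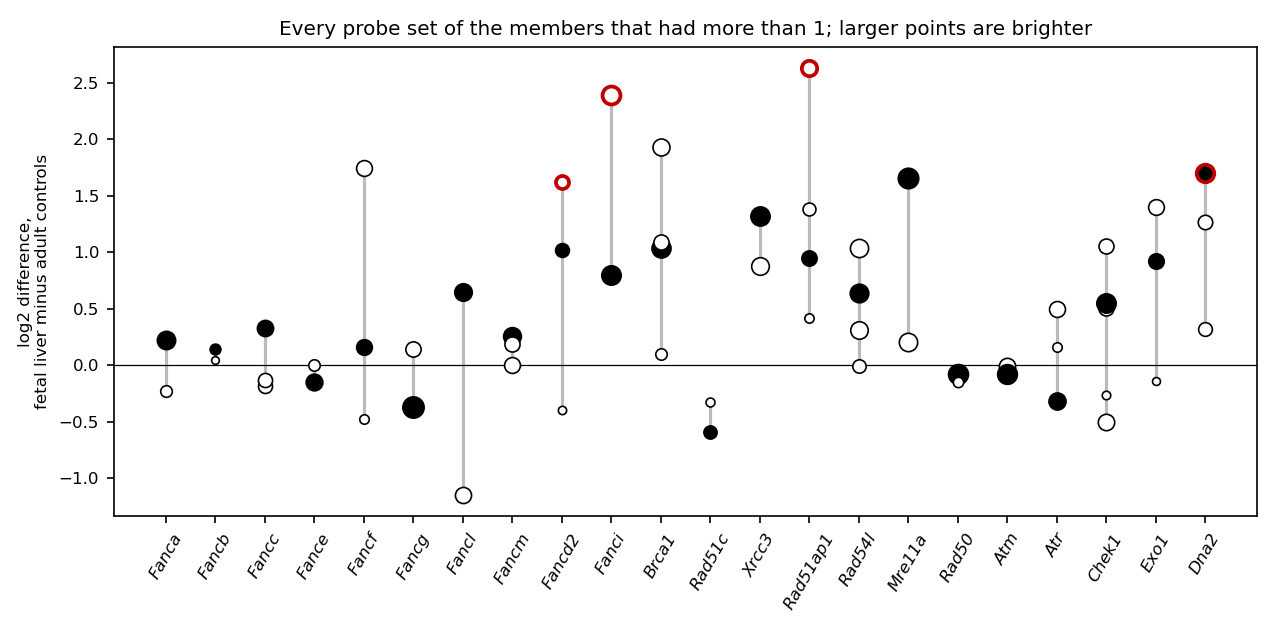
Log2 difference between fetal liver and adult controls for every probe set of the 22 members that had more than 1; filled points are the probe sets with the highest mean, point size grows with mean intensity, and red rings have an adjusted p under 0.05 over all probe sets. The called probe sets of Rad51ap1, Fanci and Fancd2, at 2.63, 2.39 and 1.62, are not those with the highest mean, while that of Dna2 is.

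Genes of cell division and of other cell types were among those called in the fetal comparison. Of 19 measured proliferation genes all 19 were positive, with a median of 1.41 and 4 called: Plk1, Mki67, Ccna2 and Mcm3. Mki67, a marker of dividing cells, rose by 1.22 (SE 0.24, adjusted p = 0.0122). The summed intensity of 4 hepatocyte genes lay between 603 and 9030 in fetal liver and at or below 931 on every adult array, and 2 of the 4, Apoa1 and Alb, were called against controls. For 4 endothelial genes the sum was 670 to 7010 against 587 or less in adults, with Cdh5, Stab2 and Kdr called. For 4 erythroid genes it was 4300 to 5630 in fetal liver, 992 to 1480 in control day 7 and 655 to 2680 in control day 21, with Klf1, Tfrc and Hba-a1 called. Hba-a1 was low, at 41 to 42.1 in fetal liver and 21 to 33.1 in the controls. The median intensity of the fetal arrays was 43.8 to 47.6. For 4 myeloid genes it was 697 to 5610 against 905 or less in adults. All 4 were positive against controls, with a median of 1.77 and a smallest adjusted p of 0.0713, and none was called. Itgam was at the floor on 1 fetal array and the other 3 on none. No HSC, progenitor, megakaryocyte or lymphoid marker was called against controls. None of these hepatocyte, endothelial and erythroid genes was at the floor in fetal liver. The part of these cells and of division in the member values was not tested, and a larger share of cells that express a gene cannot be told apart from more RNA per cell.

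The KO comparison at day 7 asks what follows soon after loss of C/EBPa. No member was called at day 7, where limma called 0% of all genes, and 4 of 30 members had an unadjusted p under 0.05 (13.3%, against 6.72% of all genes). Positive differences were found for 23 of 30 members, with a median of 0.44, against 50.1% of all genes and a median of 0. For 8 members the 3 KO arrays lay above the 3 control arrays, and for 0 they lay below. Over all genes 7.48% lay above and 6.39% below. Without control day 7 replicate 1, the control array least like its group, and control day 21 replicate 3, 21 of 30 were positive, with a median of 0.39, and 10 lay above and 2 below their controls, where 12.3% of all genes lay above and 11.4% below. Without KO day 7 replicate 2 the median was 0.25.

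The 8 separated members were Exo1, Xrcc3, Rad51c, Rad50, Rad51ap1, Mre11a, Fanca and Fancl. Exo1 had 26.3, 40.2 and 63.9 in control and 74.2, 78.8 and 128 in KO at day 7, a difference of 1.16 (SE 0.40, adjusted p = 0.594). Xrcc3, whose product acts in a complex with that of Rad51c, had 71, 159 and 206 in control and 776, 502 and 364 in KO, a difference of 1.97 (SE 0.72, adjusted p = 0.635). Control replicate 1 was the lowest day 7 array of both genes. The second Xrcc3 probe set gave 1.08 (SE 0.56). Rad51c, with the values given above, had 0.85 (SE 0.33, adjusted p = 0.663), and Mre11a, with 608, 722 and 534 in KO, had 0.95 (SE 0.73). Rad50, the ATPase that tethers broken ends, had 0.44 (SE 0.27), with 438, 580 and 411 in KO and 392, 268 and 394 in control. Fanca had 0.69 (SE 0.54) and Fancl 0.66 (SE 0.58). Each of these members had more than 1 probe set. With the mean of all its probe sets, Mre11a had 0.41 (SE 0.52), Fanca 0.21 (SE 0.35) and Fancl 0.02 (SE 0.66). By the same rule Exo1 had 0.68, Xrcc3 1.53, Rad51c 0.64, Rad50 0.37 and Rad51ap1 0.94.

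The other roles were mixed at day 7. Dna2 had 0.85 (SE 0.35, adjusted p = 0.690), with 1 KO array at 153 and the highest control array at 154. Brip1, Atm and Nbn had 0.99 (SE 0.87), 0.96 (SE 0.74) and 0.58 (SE 0.80). Fancd2, with 29, 109 and 73.6 in KO, had 0.44 (SE 0.56), and Fanci, with 126, 329 and 289, had 0.21 (SE 0.59). In both ID genes KO replicate 1 was the lowest KO array. Chek1, with 218, 144 and 238 in KO, had −0.74 (SE 0.78), and Brca1, with 58.9, 150 and 144, had −0.22 (SE 1.34). For Brca1 the 95% confidence interval ran from −3.10 to 2.66, so a change of several fold in either direction was not detectable with these arrays.

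**Figure D4:**
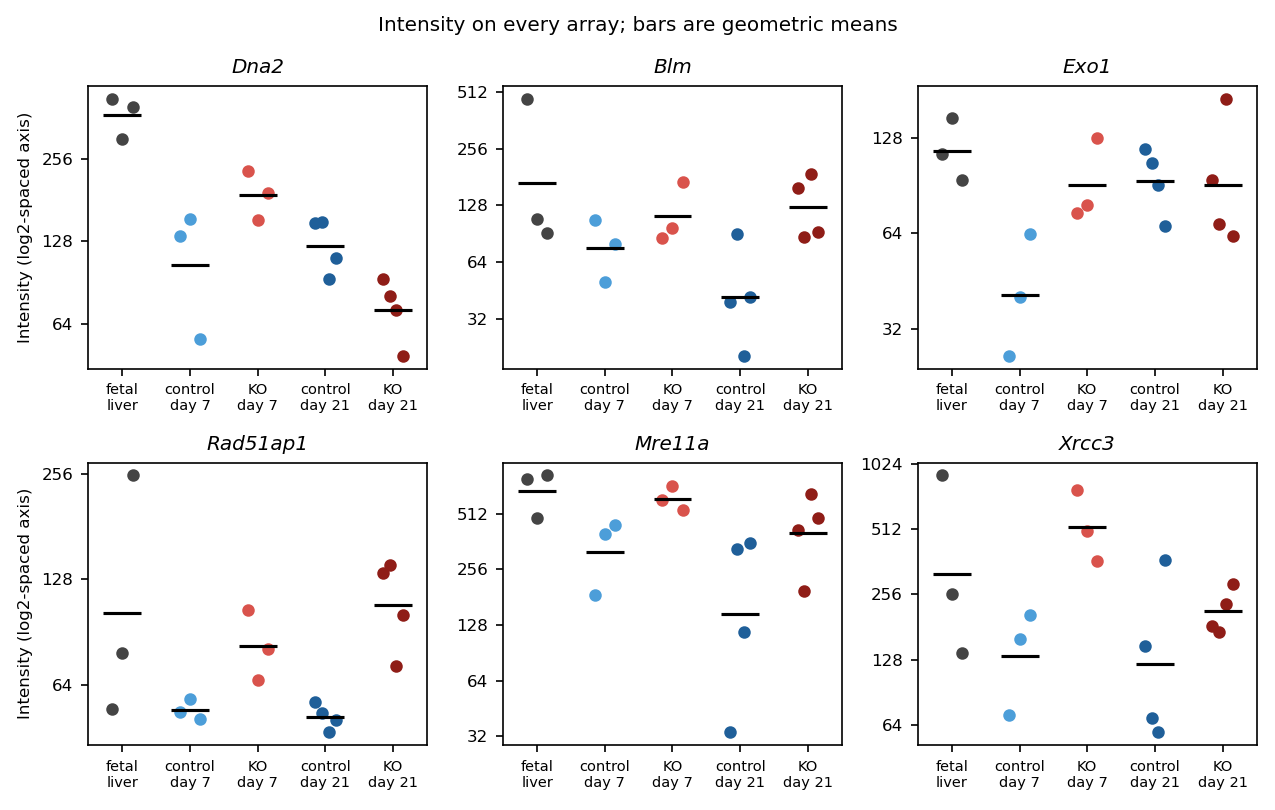
Intensity of 6 members on every array (points, log2-spaced axis) with the geometric mean of each group (bars). Fetal Dna2 lies between 302 and 423, above every adult array, and Rad51ap1 in KO lies between 66 and 141, above the 47 to 58.4 of the controls.

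At day 21 no member was called either, with 0.0179% of all genes called. Positive differences were found for 18 of 30, with a median of 0.19, against 50.3% and a median of 0 over all genes. Without KO day 21 replicate 3 the median was 0.06. It was −0.07 when each array's floor share, the percentage of its probe sets at 16, entered the fit. An unadjusted p under 0.05 was found for 5 members (16.7%, against 10.1% of all genes): Blm, Rad51ap1, Dna2, Nbn and Mre11a. Dna2 was lower in KO, at −0.78 (SE 0.31), and the others were higher. Blm had 159, 87.5, 188 and 92.9 in KO against 39.2, 89.8, 20.4 and 41.9 in control, a difference of 1.58 (SE 0.54, adjusted p = 0.337). Its groups overlapped through control replicate 2. Rad51ap1 had 133, 141, 72.7 and 101 in KO against 57.3, 53.2, 47 and 50.9 in control, a difference of 1.06 (SE 0.37, adjusted p = 0.340). It was the 1 member whose groups did not overlap at day 21, against 3.14% of all genes with KO above control. Nbn, which carries the kinase ATM to breaks, had 1.64 (SE 0.69), with control replicate 1 at the floor, and Mre11a had 1.45 (SE 0.63), with 420, 195, 656 and 484 in KO.

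Other members at day 21 lay close to 0 or varied widely. Exo1, with 94.5, 68.7, 170 and 62.7 in KO and 118, 107, 91 and 67.4 in control, had −0.04 (SE 0.34). Fancd2, with 39.7, 32.5, 48.1 and 56.2 in KO, had 0.26 (SE 0.49), and Fanci, with 202, 213, 484 and 475, had 0.27 (SE 0.51). On its second probe set Fanci had 180, 179, 393 and 341 in KO against 26, 171, 18.9 and 41.2 in control, and these arrays did not overlap (2.57, SE 0.62, adjusted p = 0.195 over all probe sets). Chek1, with 339, 94.7, 347 and 75.8 in KO, had −0.43 (SE 0.68). Xrcc3, with 182, 172, 231 and 286 in KO and 147, 69.1, 59.2 and 369 in control, had 0.81 (SE 0.63), and control replicate 4 lay above all KO arrays. Brca1 had 1.23 (SE 1.16).

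Over both days together 24 of 30 members were positive, with a median of 0.25, against 50.9% of all genes and a median of 0.01. No member was called by limma, where 0.0715% of all genes were, and 4 had an unadjusted p under 0.05 (13.3%, against 11.7% of all genes). Rad51ap1 was the 1 member for which all 7 KO arrays lay above all 7 control arrays, against 0.274% of all genes. Its KO intensities at day 7 were 105, 66 and 80.9 against 53.6, 58.4 and 51.3 in control, and its mean difference was 0.83 (SE 0.28, 95% confidence interval 0.22 to 1.44, adjusted p = 0.283). With the mean of its 4 probe sets the difference was 1.20 (SE 0.21, adjusted p = 0.0449), past the threshold, where 0.173% of all genes were called. Xrcc3 followed with 1.39 (SE 0.48, adjusted p = 0.289).

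The KO effects of both days were also set against each other. For that interaction 0 members and 0% of all genes were called by limma, while 3 of 30 members, Dna2, Rad51c and Exo1, had an unadjusted p under 0.05, against 4.52% of all genes. Dna2 had an effect of 0.85 at day 7 and −0.78 at day 21, a difference of −1.63 (SE 0.47, adjusted p = 0.990). The KO arrays of Dna2 lay at 153 or above at day 7 and at 93.4 or below at day 21. Rad51c had effects of 0.85 and −0.38, a difference of −1.23 (SE 0.43, adjusted p = 1). On the other 2 Dna2 probe sets the effects at day 7 and day 21 were 1.34 and 0.45 on the brighter and −0.56 and 0.07 on the dimmer. Between the control groups, day 21 against day 7, no member was called, with 0.0298% of all genes called, and 15 of 30 were positive, against 48.2% of all genes. An unadjusted p under 0.05 was found for 1 member, Exo1 (3.33%, against 8.05% of all genes). Exo1 was the 1 member whose control groups did not overlap (1.20, SE 0.37, adjusted p = 0.440), against 2.75% of all genes with day 21 above day 7, and Mre11a had −1.12 (SE 0.68). With the mean of all probe sets per gene, Exo1 had 0.30 (SE 0.40) and Mre11a −0.23 (SE 0.49).

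Genes of cell division and of other cell types also differed in value in the KO comparison, mostly without passing the test. The mean log2 intensity of the 30 members was 7.04 to 7.23 per array in fetal liver, 6.39 to 6.91 in control and 6.87 to 7.13 in KO at day 7, and 6.36 to 6.92 in control and 6.48 to 7.19 in KO at day 21. The 19 proliferation genes had means of 9.31 to 9.77, 7.56 to 8.47, 8.70 to 9.19, 8.05 to 8.66 and 8.39 to 9.03 in the same order. At day 7, 18 of these 19 genes were positive in KO, with a median of 0.95, and at day 21 it was 12 of 19, with a median of 0.34. None of the 19 was called, with smallest adjusted p of 0.471 at day 7, 0.35 at day 21 and 0.167 over both days. Mki67 had 0.83 (SE 0.28) and 0.46 (SE 0.25). The summed intensity of 4 megakaryocyte genes was 444 to 833 in control and 1180 to 3290 in KO at day 7, and 593 to 986 and 2540 to 5510 at day 21, with none of the 4 at the floor in KO. Over both days Ppbp, a platelet chemokine, rose by 2.00 (SE 0.33, adjusted p = 0.0448), and it was the 1 marker called in KO against control.

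The other marker lists gave no call in KO. The sum of 4 erythroid genes was 992 to 1480 in control and 886 to 2190 in KO at day 7, and 655 to 2680 and 1250 to 4300 at day 21. Klf1, an erythroid transcription factor, had 2.43 (SE 0.56, adjusted p = 0.143) over both days. The sum of the 3 progenitor genes outside the gate, Cd48, Flt3 and Cd34, was 662 to 961 in control and 1260 to 2270 in KO at day 7, without overlap, and 382 to 1620 and 527 to 846 at day 21. Cd48 had 2.78 (SE 1.04, adjusted p = 0.645) at day 7. The sum of 4 myeloid genes was 269 to 905 and 108 to 365 at day 7, and 77.3 to 735 and 72.2 to 867 at day 21. Over both days 2 of the 4 were positive, up to 0.73, and 2 were negative. Mpo, a granule enzyme, was the lowest of them at −2.43 (SE 0.77, adjusted p = 0.256). The 7 HSC markers summed to 6180 to 7550 in control and 4220 to 4900 in KO at day 7, also without overlap, and to 4870 to 7620 and 2920 to 6170 at day 21. The sum weighs bright genes most, and gene by gene the list was split at day 7, with 3 positive, 4 negative and a median of −0.17. Hlf, an HSC transcription factor, had −0.99 (SE 0.33, adjusted p = 0.571) at day 7. At day 21, 6 of the 7 were negative, among them Fgd5 at −2.30 (SE 0.52, adjusted p = 0.144). Among lymphoid, hepatocyte and endothelial markers the smallest adjusted p in KO was 0.466. The part of division and of these cells in the member values was not tested. The log2 ratio of 3′ to 5′ control signals ran from −0.40 to 0.20 in control day 21 and from 0.02 to 0.52 in the other groups.

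**Figure D5:**
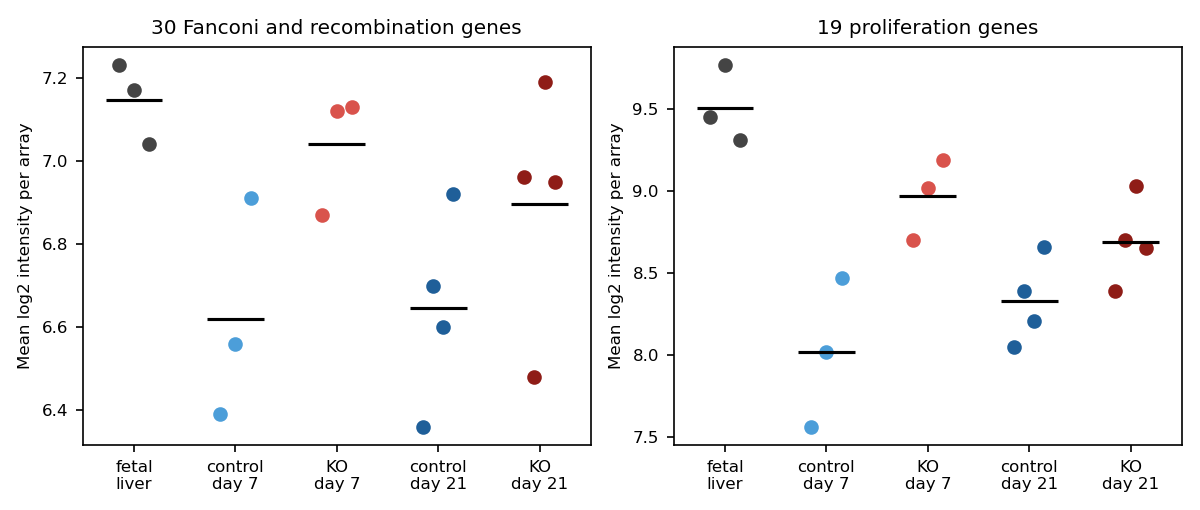
Mean log2 intensity per array (points) of the 30 measured members and of 19 proliferation genes, with the mean of each group (bars); the vertical axes do not start at 0. In both panels the fetal liver arrays stand highest as a group, and at day 7 control arrays lie at 6.39 to 6.91 and KO arrays at 6.87 to 7.13 for the members.

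Other repair genes were taken from lists of the pathway and of neighbouring pathways. Of 30 measured further Fanconi and recombination genes, 23 were positive in fetal liver against controls, with a median of 0.63, and 2 were called, both higher. Rmi1, the partner of BLM in the complex that dissolves joined DNA, rose by 2.29 (SE 0.25, adjusted p = 0.000131). Its intensities were 350, 326 and 252 in fetal liver, 117, 43.6 and 60.5 in control day 7, and 53.5, 58.4, 67.8 and 55.1 in control day 21. They were 189, 156 and 158 in KO day 7 and 122, 175, 101 and 115 in KO day 21. Fetal liver lay above all adult arrays, and KO lay above control at each day. Over both days Rmi1 rose in KO by 1.20 (SE 0.20, adjusted p = 0.0448), and against KO it was higher in fetal liver by 1.08 (SE 0.25, adjusted p = 0.039). Of its 4 other probe sets, 1 was called in fetal liver against controls (3.04, SE 0.51) and none in KO, where they gave 1.75, 0.35, 0.23 and −0.01 over both days. With every probe set tested on its own, the chosen Rmi1 probe set had an adjusted p of 0.0561 in KO over both days. Rpa3, a subunit of the protein that coats single-stranded DNA, rose in fetal liver by 1.42 (SE 0.30, adjusted p = 0.0182).

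The neighbouring lists gave few calls. Of 23 checkpoint genes 20 were positive in fetal liver against controls, with a median of 0.62 and none called, and the smallest p belonged to Tipin, a fork protection factor, at 1.66 (SE 0.46, adjusted p = 0.0642). Of 7 mismatch repair genes 1 was called, Mlh3, which rose by 2.28 (SE 0.39, adjusted p = 0.00462). None of 12 end joining genes was called, with a median of 0.17 and Polq, the polymerase of alternative end joining, at 0.87 (SE 0.41). None of 12 nucleotide excision repair genes was called, with a median of −0.58 and Xpc, a damage sensor, at −1.81 (SE 0.54, adjusted p = 0.0832). In KO against control at day 7 and at day 21, none of the genes on these 5 lists was called. At day 7 the smallest p-values belonged to Rmi1, Rad1, Mlh3, Ercc2 and Xrcc1, at 1.30, 1.51, 1.09, −0.66 and 1.25, and at day 21 to Rmi1, Trp53bp1, Msh6, Ddb1 and Xrcc6, at 1.10, −1.36, 1.37, 0.58 and 1.99.

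The order of the groups differed between members. The highest group mean lay in fetal liver for 12 of 30 members, where 27.7% of all genes had theirs. It lay in KO day 7 for 7 (18% of all genes) and in KO day 21 for 5 (15.2% of all genes). It lay in each control group for 3, against 19.7% of all genes at day 7 and 19.4% at day 21. The lowest lay in control day 7 for 11, in control day 21 for 10, in fetal liver for 4, in KO day 21 for 3 and in KO day 7 for 2. For all genes the lowest mean lay in control day 7 in 21.9% and in control day 21 in 21.7%. It lay in fetal liver in 25.7% of all genes, in KO day 21 in 14.2% and in KO day 7 in 16.5%. Over the comparisons run, fetal liver for Dna2 was the single place in these orders with a called difference.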

How the data were processed

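Per the labels' protocols, sorted HSCs went into Trizol, and their RNA was purified on RNeasy columns, amplified by whole-transcriptome amplification (Nugen Ovation Pico) and labelled with biotin. The authors deposited intensity values on a linear scale for 45101 probe sets. The submitters' processing notes name RMA without a version, with the scaling and any later step not given in the sources used here. Because the test had been planned for log2 values, log2 of the deposited intensity was taken with no pseudocount. The floor of 16 is 4 on this scale. Platform annotation gave 34958 probe sets 1 gene, 932 several genes and 9211 none. Of 18194 genes, 1409 at the floor on all arrays were left out.

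A limma 3.58.1 model in R 4.3.3 (lmFit, contrasts.fit and eBayes, 1 mean per group, 12 residual and 1.5 prior degrees of freedom) was fitted to all 17 arrays, and p-values were adjusted by Benjamini-Hochberg over 16785 genes, with calls under 0.05. Arrays correlated at 0.952 or less, and no pair was identical. Arrays give no count depth, and their number limits the precision. The members, roles, gene lists and tests were chosen with earlier results of these data known. Values on every array are given for called members, for the 2 members with the smallest p in comparisons without calls, and for Brca1, Fancd2, Fanci and Chek1. Values for Mre11a in the fetal comparison, Rad50 and Rmi1, and the second probe sets, were added after their values were seen. Listed genes outside the members were named when called, otherwise by smallest p. The model was tested on simulated data. Alternatives were other scalings, filters, probe set rules, covariates, array weights, a replicate block and left-out arrays. Deviations from the group means correlated at a median of 0 over 31 pairs of same-numbered arrays, from −0.036 to 0.078. Over the 84 other pairs the correlations ran from −0.086 to 0.065.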

Additional observations from a re-analysis of the deposited data

Results flagged for a closer look

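In groups of 4 arrays, 59 pairs of a member and a group were tested and 6 values stood apart from the other 3 arrays of their group by Dixon's test, which chance gives in about 1 in 20 groups. In control day 21, replicate 4 held Fancc at 497, with the others at 60.8 to 75.8, and Chek2 at 966, with the others at 54.4 to 88.2. Replicate 3 of that group held Brca1 at 1080, with the others at 43.2 to 60, and Fancg at the floor of 16, with the others at 852 to 1480. In KO day 21, replicate 1 held Atm at 579, with the others at 167 to 207, and replicate 3 held Rad54b at 21.3, with the others at the floor of 16. For Rad54b the floor alone fixes the result, since any value above 3 tied arrays passes, and the other 5 were set against arrays above the floor. Control day 21 replicate 3 was also the array least like its group. None of these 6 members was called in any comparison.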

How the results depend on the processing

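Under the alternatives run, no member followed by name in a comparison changed direction. These were the called members and, where none was called, the 2 members with the smallest p. The median over members changed sign in KO at day 21, from 0.19 in the main fit to −0.07. It also did so in control day 21 against day 7, from 0.03 to −0.10. With the mean of all probe sets per gene, 1 member was called in KO over both days (Rad51ap1), where 0.173% of all genes were. By the same rule 2 were called in fetal liver against controls (Dna2 and Rad51ap1), where 5.24% of all genes were. With only the arrays compared, 0 members were called in fetal liver against controls, where Dna2 kept its difference of 1.70 at adjusted p = 0.0521, and 2 in fetal liver against KO (Dna2 and Rad51c). The construction of that fit leaves fewer arrays to estimate the spread. With each probe set tested on its own, an alternative chosen after seeing the data, 4 members were called in fetal liver against controls. Of all genes, 2.67% had a probe set called higher there. Without the control array least like its group at each day, also chosen after seeing the data, 2 were called against KO (Dna2 and Rad51c). For this fit, that of only the arrays compared and those with 1 array left out, the share of all genes called is not given here. Their counts are therefore not read as results about the members. With each array's floor share in the fit, the median of KO at day 21 was −0.07, and the cause was not tested. Leaving out each array in turn gave 1 to 2 called members in fetal liver against controls, 2 without fetal replicate 1, medians of KO at day 7 from 0.25, without KO day 7 replicate 2, to 0.56, medians of KO at day 21 from 0.06, without KO day 21 replicate 3, to 0.24, medians of control day 21 against day 7 from −0.10, without control day 7 replicate 1, to 0.12, and medians of the difference between the KO effects from −0.32, without KO day 7 replicate 1, to −0.02. Dna2 was called whichever array of the comparison was left out, with adjusted p from 0.00391 to 0.0287 against controls and from 0.0103 to 0.0398 against KO. With the replicate block, Dna2 had 1.64 (adjusted p = 0.00676) against controls and 1.61 (adjusted p = 0.0101) against KO, and no member's call changed. The labels do not say whether arrays of the same number are paired. Intensities at the floor limit Rad54b, and the wide spread between arrays limits Brca1 and Fancg.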
